A study of Mus musculus with 45 samples.

Results

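The core genes of the circadian clock were followed in the liver of 45 mice, namely the activators Arntl, Clock and Npas2, the repressors Per1, Per2, Per3, Cry1 and Cry2, the feedback repressor Nr1d1 and the output factor Dbp. They were chosen by name, as 10 of the 39179 genes in each count file, and all 10 were among the 17464 genes detected with more than 4 reads in any mouse. The mice were female C57BL/6, first dosed at postnatal day 28, and 5 mice in each of 9 groups were gavaged over 28 days. The labels give the dosing both as daily and as every 4 days, and the methods of the study as every 4 days. The vehicle group had sesame oil alone, and the other 8 groups had TCDD in it at 0.01 and 0.03, at 0.1 and 0.3, at 1 and 3, and at 10 and 30 µg/kg. TCDD is a dioxin that activates the aryl hydrocarbon receptor. The labels also call the mice ovariectomized, which the methods of the study do not mention, and no allele or other agent distinguishes the groups. Whole liver RNA was sequenced at 1 end point in mice kept on a light/dark cycle, and the hour of killing is not given in the sources used here, so levels and correlations are described and no phase is read. In whole liver, fewer cells of a type and less RNA per cell cannot be told apart.

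The circadian clock is a loop in which ARNTL paired with CLOCK or NPAS2 binds E-boxes and switches on the Per, Cry, Nr1d1 and Dbp genes. PER and CRY proteins then repress that pair, and NR1D1 represses Arntl, Npas2 and Cry1 through sites shared with the ROR activators. DBP drives genes with D-boxes, Per3 among them, and in liver the levels of these transcripts rise and fall over the day, many metabolic genes with them.

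In the GRCm38 annotation (GENCODE M21) the activators are Arntl (ENSMUSG00000055116) at chr7:113207465-113314126 on the plus strand, Clock (ENSMUSG00000029238) at chr5:76209868-76304792 on the minus strand and Npas2 (ENSMUSG00000026077) at chr1:39193731-39363236 on the plus strand. The repressors are Per1 (ENSMUSG00000020893) at chr11:69095217-69109960 on the plus strand, Per2 (ENSMUSG00000055866) at chr1:91415982-91459324 on the minus strand, Per3 (ENSMUSG00000028957) at chr4:151003652-151044665 on the minus strand, Cry1 (ENSMUSG00000020038) at chr10:85131700-85185064 on the minus strand and Cry2 (ENSMUSG00000068742) at chr2:92403646-92434043 on the minus strand. Dbp (ENSMUSG00000059824) lies at chr7:45705088-45710203 on the plus strand, and Nr1d1 (ENSMUSG00000020889) at chr11:98767932-98775333 on the minus strand. Counts cover all exons of a gene.

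Promoter windows from RefSeq (250 bases before to 50 after an annotated start, 300 bases in all) matched 9 of the 10 genes, with 13 windows. No window was matched for Per2. The windows were searched on both strands for the E-box CACGTG, the variant CACGTT, the D-boxes TTATGTAA and TTACGTAA, the ROR element cores TAGGTCA and TGGGTCA, and GCGTG, the core of the dioxin response element. The E-box was found for 2 genes (Per1 and Cry1), CACGTT for 3 (Cry1, Cry2 and Nr1d1), a D-box for 1 (Per3, with 2 copies) and a ROR core for 1 (Arntl). Of the 27025 genes with such windows, 8.09% hold the E-box in at least 1 of them, 5.44% CACGTT, 1.23% a D-box and 7.35% a ROR core (7.15%, 4.68%, 1.06% and 6.45% of the 32851 windows). The GCGTG core was present for 8 of the 9 genes, against 35.2% of all genes and 32.4% of all windows, but the members' windows had a median GC content of 64.7% against 52.7% overall. The windows of 5 members that hold such a motif are shown, in lower case with the clock motifs in capitals, to show which letters matched. They cover the E-box, its variant, the D-box and the ROR core. In Nr1d1 and Cry1 the variant reads AACGTG on the printed strand. A match is a description of these letters and not of binding.
Per1, GRCm38.p6 chr11:69098699-69098998, plus strand: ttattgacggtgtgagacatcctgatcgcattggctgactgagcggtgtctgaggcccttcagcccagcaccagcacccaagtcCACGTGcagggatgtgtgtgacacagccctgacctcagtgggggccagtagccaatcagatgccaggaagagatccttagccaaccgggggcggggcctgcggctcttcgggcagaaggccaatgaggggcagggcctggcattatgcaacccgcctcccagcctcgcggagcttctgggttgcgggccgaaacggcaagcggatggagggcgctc
Cry1, GRCm38.p6 chr10:85185005-85185304, minus strand: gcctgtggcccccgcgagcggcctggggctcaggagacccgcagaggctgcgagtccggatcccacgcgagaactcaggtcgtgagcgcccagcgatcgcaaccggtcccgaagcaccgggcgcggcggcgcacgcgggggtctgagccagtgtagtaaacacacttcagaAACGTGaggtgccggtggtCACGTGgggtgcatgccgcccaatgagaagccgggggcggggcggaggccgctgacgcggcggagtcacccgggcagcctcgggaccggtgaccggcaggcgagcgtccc
Nr1d1, GRCm38.p6 chr11:98775328-98775627, minus strand: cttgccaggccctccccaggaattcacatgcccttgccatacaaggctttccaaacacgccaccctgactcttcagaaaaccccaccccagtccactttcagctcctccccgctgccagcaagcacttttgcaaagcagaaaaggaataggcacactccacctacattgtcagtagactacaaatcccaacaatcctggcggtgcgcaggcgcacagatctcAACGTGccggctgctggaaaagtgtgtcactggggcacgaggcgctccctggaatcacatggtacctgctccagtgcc
Per3, GRCm38.p6 chr4:151044616-151044915, minus strand: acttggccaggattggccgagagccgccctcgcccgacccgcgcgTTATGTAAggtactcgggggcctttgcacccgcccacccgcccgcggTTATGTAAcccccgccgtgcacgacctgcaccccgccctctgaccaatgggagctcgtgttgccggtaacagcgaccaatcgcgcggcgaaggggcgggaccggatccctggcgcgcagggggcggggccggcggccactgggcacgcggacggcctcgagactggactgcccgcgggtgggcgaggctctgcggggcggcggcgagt
Arntl, GRCm38.p6 chr7:113207261-113207560, plus strand: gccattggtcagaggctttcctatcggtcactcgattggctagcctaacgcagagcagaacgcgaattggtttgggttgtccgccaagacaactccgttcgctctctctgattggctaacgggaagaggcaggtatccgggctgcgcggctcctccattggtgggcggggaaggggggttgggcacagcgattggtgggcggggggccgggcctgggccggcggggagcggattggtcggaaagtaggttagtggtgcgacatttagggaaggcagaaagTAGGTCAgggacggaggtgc

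Reads counted on genes ranged from 11767284 to 56509899 a mouse. Values are CPM, reads scaled to a common library size, with library sizes adjusted by the trimmed mean of M values (TMM), and differences are on the log2 scale, where a step of 1 is a factor of 2. The hepatocyte markers summed to between 111000 and 171000 CPM, and none was at 0 in all mice. Cyp1a1, which TCDD induces through its receptor, rose from a mean of 7.50 CPM in vehicle mice to 7627 CPM at 30 µg/kg (edgeR log2 fold change 9.98 ± 0.83 SE, adjusted p = 1.067e-12, n = 5 mice a group). This checks the labels of the vehicle and 30 µg/kg groups, and not those of the other doses.

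Per base of exon, Dbp and Nr1d1 were the most abundant members and Arntl and Npas2 the least. The median over 45 mice was 31.6 RPKM (CPM divided by exon length in kilobases) for Dbp and 16.8 RPKM for Nr1d1. It was between 3.56 and 9.88 RPKM for the 5 Per and Cry genes and 2.05 RPKM for Clock. Arntl had a median of 0.179 RPKM, and Npas2 of 0.0132 RPKM with no read at all in 15 of the 45 mice, so that few reads set its level. Every other member had reads in every mouse. On the counting side, exons of Dbp share 539 bp (18% of their length) with Sphk2 and those of Nr1d1 share 263 bp (8.55%) with Thra. Exons of Cry2 share 295 bp (4.67%) with D930015M05Rik and those of Arntl 33 bp (0.439%) with Gm45355. All 4 partners lie on the opposite strand, and without strand the reads there cannot be told apart.

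The first comparison asked which clock genes differed from the vehicle at each dose. Few did, and with all groups in the edgeR fit the only member past an adjusted p of 0.05 was Cry2 at 30 µg/kg, a repressor that acts with PER and fell to 32.8 from a mean of 43.97 CPM. In edgeR, with Benjamini-Hochberg adjustment over all genes, 0 of 10 members were called at each dose from 0.01 to 10 µg/kg, and 1 of 10 at 30 µg/kg. Among all 17464 genes tested, 0%, 0.0573%, 0.0229%, 0.464%, 1.76%, 7.54%, 15.9% and 29.6% were called at the 8 doses in order (14.1% lower at 30 µg/kg, and 11.4% with a fold of at least 2). The members' count at 30 µg/kg was thus no larger than the share of all genes. At an unadjusted p under 0.05, the counts were 2, 4, 0, 4, 1, 0, 0 and 2 members, beside 10.1%, 11.7%, 5.15%, 10.5%, 13%, 20.8%, 28.9% and 39.4% of all genes under the same threshold. DESeq2 called 1 member at 0.3 µg/kg (Arntl), 1 at 30 µg/kg and 0 elsewhere, beside 0.204%, 0.505%, 0.0286%, 0.934%, 2.68%, 10.3%, 18.9% and 30.6% of the genes to which it gave an adjusted p. Fits in edgeR of only the dosed group and the vehicle called 2 members at 10 µg/kg (Per3 and Cry2) and 3 at 30 µg/kg (Per3, Cry2 and Dbp), all lower, beside 21.4% and 33.7% of the genes tested there. The median log2 fold change of the 10 members was -0.17, -0.10, 0.09, -0.17, -0.17, -0.33, -0.23 and -0.42 at the 8 doses, and that of all genes was at most 0.03.

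Cry2 was 38.9, 52.5, 41.8, 46.97 and 39.7 CPM in the vehicle mice and 27.1, 29.3, 29.7, 40.1 and 37.99 CPM at 30 µg/kg. The groups overlapped, with 4 of the 5 treated mice below every vehicle mouse. Mean Cry2 was 43.97 ± 5.72 CPM (SD, n = 5) in the vehicle and 37.2 ± 8.901, 31.9 ± 7.38, 37.9 ± 6.77, 33.5 ± 2.69, 40.2 ± 6.57, 36.95 ± 7.896, 35.5 ± 2.69 and 32.8 ± 5.79 CPM at the doses in rising order. The log2 fold change was -0.42 ± 0.16 (SE, n = 5, edgeR adjusted p = 0.0374). The call was lost when any of 5 mice was left out, namely vehicle replicate 2 (-0.34, adjusted p = 0.122) or 4 (-0.40, adjusted p = 0.0734) and 30 µg/kg replicate 1 (-0.37, adjusted p = 0.0991), 2 (-0.39, adjusted p = 0.0851) or 3 (-0.39, adjusted p = 0.0837).

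Dbp, a PAR bZIP factor that carries the clock's output to metabolic genes, had the largest log2 fold change of the members at 30 µg/kg. Its level was 173, 184, 145, 158 and 171 CPM in the vehicle mice and 94.7, 82.5, 37.6, 62.4 and 30.4 CPM at 30 µg/kg. All 5 treated mice lay below every vehicle mouse, yet the edgeR adjusted p was 0.0661 for a log2 fold change of -1.43 ± 0.60 (SE), and it was 0.000428 in a fit of these 2 groups alone. At 3 µg/kg the 5 mice had 132, 88.5, 33.2, 128 and 36.8 CPM, again all below the vehicle (log2 fold change -0.99 ± 0.59, SE, edgeR adjusted p = 0.347). Between 0.01 and 1 µg/kg the mice spread from 3.29 to 259 CPM, on both sides of the vehicle. Mean Dbp was 166 ± 14.6 CPM (SD, n = 5) in the vehicle and 122 ± 62.3, 102 ± 73.5, 129 ± 99.5, 89.1 ± 74.2, 122 ± 62.1, 83.6 ± 47.5, 102 ± 51.6 and 61.5 ± 27.8 CPM at the doses in rising order. On the log2 scale the vehicle was highest (7.37 ± 0.13, SD, n = 5) and 0.3 µg/kg lowest (5.63 ± 2.29).

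Nr1d1, the nuclear receptor REV-ERB alpha that represses Arntl, had 120, 73.4, 29.8, 51.8 and 52.9 CPM in the vehicle mice. At 30 µg/kg it had 49.0, 55.1, 19.2, 21.6 and 8.50 CPM, so that 3 of the 5 mice were below every vehicle mouse. The log2 fold change of -1.09 ± 0.79 (SE, edgeR adjusted p = 0.318) did not pass. Mean Nr1d1 was 65.6 ± 34.1 CPM (SD, n = 5) in the vehicle and 108 ± 74.3, 77.6 ± 54.1, 76.5 ± 65.6, 67.8 ± 68.5, 67.5 ± 48.6, 33.6 ± 32.4, 59.2 ± 42.2 and 30.7 ± 20.2 CPM at the doses in rising order.

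Of the Per genes, Per3 was 90.8, 108, 134, 135 and 114 CPM in the vehicle mice and 75.7, 76.1, 62.0, 80.3 and 76.7 CPM at 30 µg/kg. These groups did not overlap, nor did those at 10 µg/kg, but the edgeR adjusted p at 30 µg/kg was 0.352 for a log2 fold change of -0.65 ± 0.50 (SE), and 0.000498 in a fit of these 2 groups alone. Mean Per3 was 116 ± 18.5 CPM (SD, n = 5) in the vehicle and 72.1 ± 38.9, 74.4 ± 44.7, 101 ± 58.7, 73.5 ± 54.7, 101 ± 49.6, 87.5 ± 17.4, 75.8 ± 13.03 and 74.2 ± 7.03 CPM at the doses in rising order.

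Per2 pointed the other way at 30 µg/kg, with 76.9, 53.8, 88.1, 84.2 and 99.3 CPM against 40.9, 47.9, 73.2, 61.9 and 70.7 CPM in the vehicle (0.45 ± 0.48 on the log2 scale, edgeR adjusted p = 0.522). The ranges overlapped, with 4 of the 5 treated mice above every vehicle mouse. Mean Per2 was 58.9 ± 14.1 CPM (SD, n = 5) in the vehicle and 38.4 ± 29.5, 43.2 ± 29.8, 57.3 ± 30.9, 44.6 ± 26.8, 50 ± 23.5, 66.7 ± 26.8, 72.1 ± 12.9 and 80.5 ± 16.9 CPM at the doses in rising order. Per1, an early-responding repressor, differed from the vehicle at 30 µg/kg by -0.55 ± 0.61 (SE, edgeR adjusted p = 0.543). Mean Per1 was 46.9 ± 16.04 CPM (SD, n = 5) in the vehicle and 21.98 ± 15.02, 23.7 ± 19.2, 35.95 ± 18.9, 24.6 ± 16.7, 33.5 ± 20.03, 34.8 ± 8.18, 32.8 ± 17.8 and 32.1 ± 10.7 CPM at the doses in rising order. Cry1, a repressor that acts with PER, differed by -0.06 ± 0.60 (edgeR adjusted p = 0.955). Mean Cry1 was 11.96 ± 3.901 CPM (SD, n = 5) in the vehicle and 11 ± 7, 16.99 ± 8.81, 14.7 ± 10.01, 25.7 ± 31.9, 10.2 ± 5.903, 17.4 ± 10.98, 12.1 ± 9.001 and 11.5 ± 5.74 CPM at the doses in rising order. Clock, the histone acetyltransferase partner of ARNTL, differed by 0.31 ± 0.32 (adjusted p = 0.497). Mean Clock was 24.8 ± 5.14 CPM (SD, n = 5) in the vehicle and 42.2 ± 14.1, 41.5 ± 16.9, 36.7 ± 17.4, 44.5 ± 21.7, 30.5 ± 16.6, 31.3 ± 12.6, 25.4 ± 4.19 and 30.7 ± 4.69 CPM at the doses in rising order.

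Arntl and Npas2 had their lowest group means in CPM in the vehicle (Arntl) and at 10 µg/kg (Npas2). Mean Arntl was 0.848 ± 0.4697 CPM (SD, n = 5) in the vehicle and 4.06 ± 2.71, 6.04 ± 8.59, 3.403 ± 4.16, 9.85 ± 15.01, 3.35 ± 5.42, 1.69 ± 1.11, 1.33 ± 1.32 and 1.27 ± 0.594 CPM at the doses in rising order. Mean Npas2 was 0.0978 ± 0.0837 CPM (SD, n = 5) in the vehicle and 0.284 ± 0.381, 0.988 ± 1.96, 0.305 ± 0.496, 2.63 ± 5.297, 0.267 ± 0.558, 0.0727 ± 0.107, 0.0627 ± 0.0607 and 0.0708 ± 0.0739 CPM at the doses in rising order. At 0.3 µg/kg the SD of each exceeded its mean.

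Ignoring the other doses, the 5 vehicle mice were also set against 5 dosed mice by exact permutation tests (two-sided, smallest possible p 0.007937). Over the 80 tests the lowest adjusted p was 0.106, so none passed. Comparisons without overlap had the smallest possible p and still only this adjusted p. A single member could not have passed by itself, so the test cannot show that no member differed. The groups did not overlap for 1 member at 0.3 µg/kg (Cry2), 1 at 3 (Dbp), 2 at 10 (Per3 and Cry2) and 2 at 30 µg/kg (Per3 and Dbp), all lower, and for 0 at the other doses. Among all genes 1.83%, 7.96%, 14.2% and 19.9% did not overlap at those 4 doses, and 1.51%, 2.79%, 0.55% and 4.74% at 0.01, 0.03, 0.1 and 1 µg/kg. When the 9 groups were ordered by level for each gene, 0 of 80 neighbouring pairs passed an adjusted p of 0.05 in the exact permutation test, 1 pair had an unadjusted p under 0.05, and every pair overlapped. The lowest adjusted p was 1. That pair was Per3, higher in the vehicle than at 3 µg/kg (permutation p = 0.0476). Neighbours are the closest groups by construction, since the order was set on the same values, so this is a description of how near the levels lie.

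**Figure D1:**
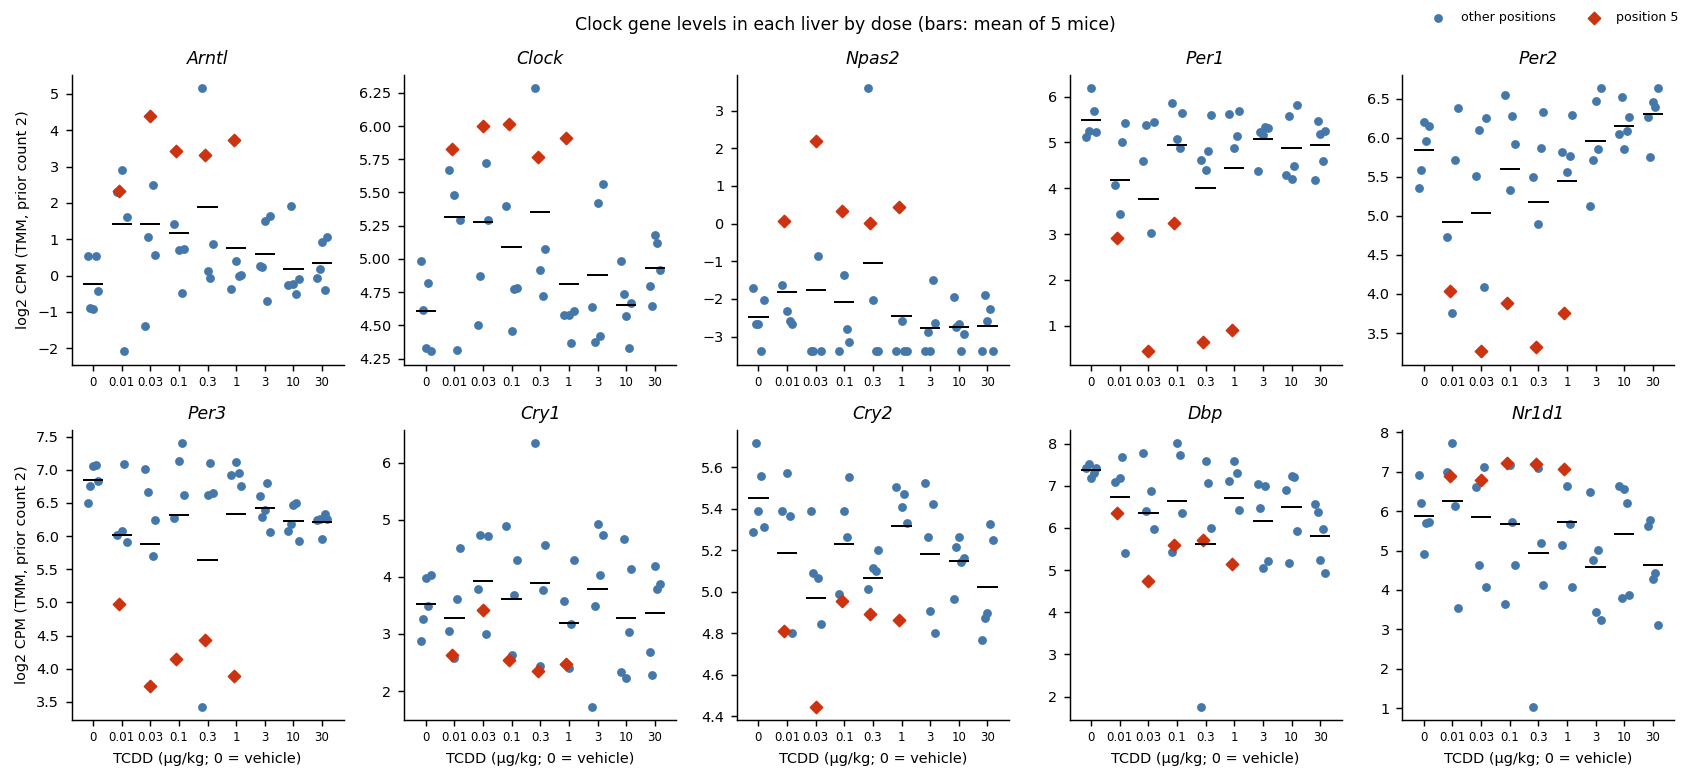
Level of each clock gene in every liver (vertical axis, log2 CPM after TMM normalization with a prior count of 2) by TCDD dose (horizontal axis, µg/kg, 0 is the vehicle), with points for single mice, black bars for group means of 5 mice and red diamonds for the mouse at position 5 of its group's run of label numbers. The red mice, present at 0.01 to 1 µg/kg, lie at the bottom for Per1 (1.26 to 9.33 CPM) and towards the top for Arntl and Clock.

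The next comparison asked whether any dose differed, and whether levels followed dose. In edgeR, 2 of 10 members differed at some dose after adjustment, against 28.8% of all genes. They were Arntl (adjusted p = 0.0296), the obligate partner in the activating pair, and Npas2 (adjusted p = 0.00404), its alternative partner. Both calls rested on 1 liver, replicate 1 at 0.3 µg/kg, without which the adjusted p was 0.125 for Arntl and 0.130 for Npas2. That liver held 35.8 CPM of Arntl and 12.1 CPM of Npas2, where the other 4 mice of its group held 9.84, 0.986, 0.857 and 1.73 CPM of Arntl and between 0 and 0.907 CPM of Npas2. It also held the lowest levels of all 45 mice of Dbp (3.29 CPM), Nr1d1 (1.96 CPM) and Per3 (10.7 CPM), and the highest of Clock (78.0 CPM) and Cry1 (81.1 CPM). Leaving out 1 µg/kg replicate 2 added Clock (adjusted p = 0.0410).

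No member followed the rank of the dose (0 of 10, against 40.5% of all genes). At an unadjusted p under 0.05 there were 3 members, beside 47.6% of all genes, and DESeq2 called 0, beside 41.2%. Dbp came nearest, at -0.12 log2 per dose step (edgeR adjusted p = 0.0670), then Nr1d1 (-0.16, adjusted p = 0.0765) and Per2 (0.09, adjusted p = 0.0818). Over log10 dose in the 40 treated mice, without the vehicle, 4 of 10 members had a trend, beside 40.3% of all genes. Per 10-fold dose, log2 levels changed by -0.65 for Arntl (edgeR adjusted p = 0.0283), -0.19 for Clock (0.0271), 0.28 for Per2 (0.0236) and -0.41 for Nr1d1 (0.0488). This fit had no term for the position of a mouse's label number, described below. The position 5 mice, high in Arntl and Clock, lie only at 0.01 to 1 µg/kg, so dose and position are not separated in it. The trends of Dbp and Nr1d1 over the dose rank passed when single mice were left out. Dbp passed without 0.01 µg/kg replicate 5 (adjusted p = 0.0392), 0.03 µg/kg replicate 3 (0.0449), 0.3 µg/kg replicate 1 (0.0372), or 10 µg/kg replicate 3 (0.0443) or 4 (0.0446), and Nr1d1 without 0.01 µg/kg replicate 5 (0.0442) or 10 µg/kg replicate 1 (0.0471).

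Most clock genes varied widely between mice of the same dose. The SD of log2 CPM within groups was 1.60 for Npas2, 1.55 for Arntl, 1.51 for Nr1d1, 1.32 for Per1, 1.15 for Dbp, 1.02 for Cry1, 0.98 for Per3, 0.89 for Per2 and 0.52 for Clock. The median over the 12412 genes with a mean of at least 1 CPM was 0.238. Only Cry2, at 0.26, was near it, and each of the other members exceeded at least 92.4% of these genes. Npas2, with no read in 15 mice, fell below that mean, so few reads set its SD. The spread also differed by group, with a median SD over the 10 members of 0.406 in the vehicle, 0.966, 1.3, 1.12, 1.79 and 1.09 at the 5 doses from 0.01 to 1 µg/kg, and 0.693, 0.641 and 0.581 at 3, 10 and 30 µg/kg. Over the same 12412 genes the median SD stayed between 0.187 and 0.272. The difference in spread between groups was not tested. The 5 groups from 0.01 to 1 µg/kg are also the only ones with a mouse at position 5 of its run of label numbers, described below. Dose and position cannot be told apart in this spread.

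Each mouse's label carries a number, and within every group these numbers fall in the group's own run of 8, from 1 to 8 in the vehicle to 73 to 80 at 30 µg/kg. The labels do not say what the number records. The position of a mouse in its run moved with the clock genes across doses. Position accounted for 85.0% of the variance within groups for Cry1 and Per2, 84.9% for Per1, 83.3% for Nr1d1, 67.9% for Per3, 61.3% for Dbp, 55.5% for Arntl, 52.3% for Clock, 47.8% for Cry2 and 46.8% for Npas2, where the median gene had 30.4%. A share of 16.7% is expected for a gene with no relation to position. The share was larger than in 80.8% of genes for Npas2, 82.1% for Cry2 and 87.5% for Clock. For the other members it was larger than in at least 90.5%. A position term added to the edgeR fit, after the data were seen, passed an adjusted p of 0.05 for 10 of 10 members against 22.5% of all genes, with adjusted p from 4.625e-10 (Cry1) to 0.00996 (Cry2). All 10 also passed with each of the 45 mice left out in turn.

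At position 5 (5 mice, 1 each at 0.01 to 1 µg/kg), Per1 was 7.46, 1.26, 9.33, 1.47 and 1.77 CPM in order of dose. All mice at other positions but 1 had more Per1 than these 5, up to 73.2 CPM. The same 5 mice had 4.96, 20.99, 10.7, 9.84 and 13.1 CPM of Arntl, where the median over all mice was 1.34 CPM. Their Nr1d1 was high too, at 119, 111, 150, 147 and 135 CPM. The 1 exception was the position 6 mouse at 0.03 µg/kg, with 7.99 CPM of Per1.

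Positions 4 and 8 held the reverse of positions 5 and 6 for Cry1 and Nr1d1. At position 8 (9 mice, 1 in each group) Cry1 ranged from 14.5 to 26.3 CPM and at position 6 (6 mice) from 4.56 to 7.91 CPM, so that the levels did not overlap. Nr1d1 was 8.50 to 24.5 CPM in the 8 dosed mice at position 8, 52.9 CPM in the vehicle mouse there, and 95.0 to 212 CPM at position 6. Per2 followed Cry1, being highest at positions 4 and 8. Dbp at position 8 was 171 CPM in the vehicle mouse and 30.4 to 85.4 CPM in the 8 dosed mice, with the lowest at 30 µg/kg.

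Other measures did not all move with position. Of the marker lists, 0 of 8 hepatocyte, 0 of 6 macrophage, 0 of 6 lymphocyte and 0 of 3 dioxin response genes passed the position test, but 4 of 6 stellate cell, 1 of 5 endothelial and 1 of 5 cholangiocyte genes did. Among all genes 22.5% passed it, a share that lists this short can miss or match. The median depth ran from 14869117 reads at position 3 to 20624724 at position 8. The part of stellate cells and depth in the clock gene levels was not tested.

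**Figure D2:**
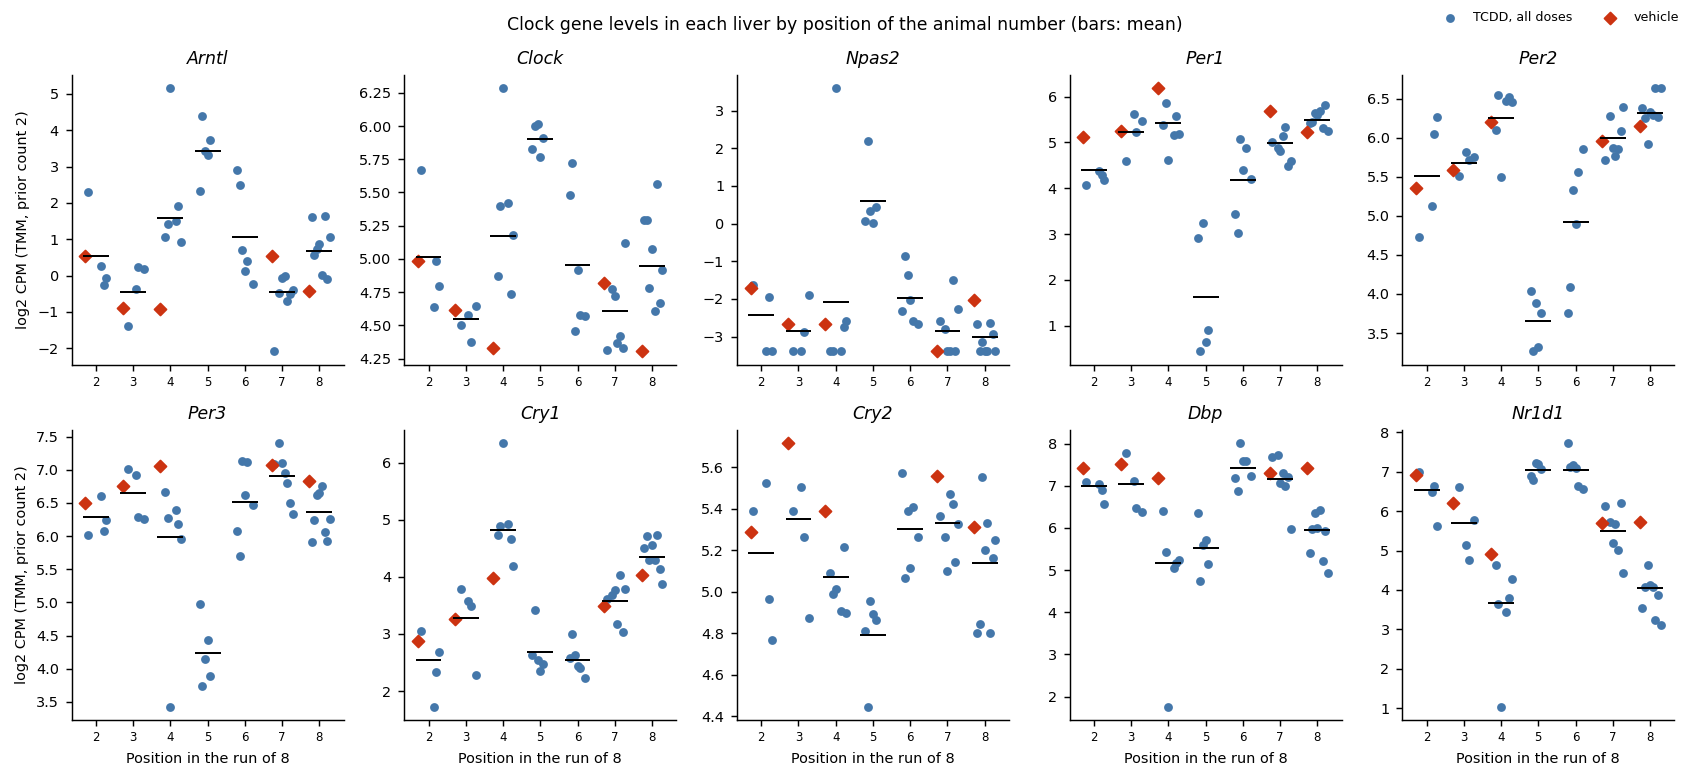
Level of each clock gene in every liver (vertical axis, log2 CPM, TMM, prior count of 2) by the position of the mouse's number in its run of 8 (horizontal axis), with blue points for TCDD mice of any dose, red diamonds for vehicle mice and black bars for the mean at each position. Per1, Per2 and Per3 are low at position 5, which holds no vehicle mouse, and Nr1d1 and Cry1 mirror each other from positions 4 to 8.

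Positions were not spread evenly over the doses. The vehicle, 3 and 30 µg/kg groups hold positions 2, 3, 4, 7 and 8, position 5 occurs from 0.01 to 1 µg/kg, and the 10 µg/kg group holds 2, 4, 6, 7 and 8. The comparison with the vehicle was therefore repeated in edgeR with the position term, which assumes that a position has the same effect at every dose. Dbp, Nr1d1 and Cry2 were then lower at 30 µg/kg, and the standard errors were 0.39 for Dbp and 0.35 for Nr1d1, against 0.60 and 0.79 without the term. The counts were 2 of 10 members at 3 µg/kg, 1 at 10 and 3 at 30 µg/kg, all lower, against 10.7%, 21% and 34.4% of all genes in either direction (4.97%, 10.5% and 16.7% lower). The count was 0 at each dose from 0.01 to 1 µg/kg, where 2, 3, 0, 8 and 2 members had an unadjusted p under 0.05, beside 9.27%, 14.5%, 7.34%, 11.8% and 13.7% of all genes. By adjusted p, 0%, 0.0515%, 0.0286%, 0.584% and 1.93% of all genes were called there.

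Dbp fell by 1.65 ± 0.39 on the log2 scale at 30 µg/kg (edgeR adjusted p = 0.000948), 3.13-fold below the vehicle. It also fell at 3 µg/kg (-1.32 ± 0.38, adjusted p = 0.0210) and at 10 µg/kg (-1.06 ± 0.39, adjusted p = 0.0451). At 30 µg/kg the call stayed with each of the 10 vehicle and treated mice left out (highest adjusted p = 0.00822). At 3 µg/kg it was lost without vehicle replicate 3 or 5 or 3 µg/kg replicate 2, 3 or 5 (up to adjusted p = 0.0906), and at 10 µg/kg without vehicle replicate 3 or 5 or any 10 µg/kg mouse (up to 0.170).

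Nr1d1 fell by 1.36 ± 0.35 at 3 µg/kg (edgeR adjusted p = 0.00856) and by 1.21 ± 0.35 at 30 µg/kg (adjusted p = 0.00676). Both calls were lost without vehicle replicate 5, the position 8 mouse (adjusted p = 0.0657 and 0.0526). Per3 (-0.65 ± 0.31, adjusted p = 0.0965) and Per2 (0.48 ± 0.21, adjusted p = 0.0796) did not pass at 30 µg/kg. Cry2 fell by 0.42 ± 0.13 at 30 µg/kg (adjusted p = 0.00889), a call lost without 30 µg/kg replicate 2 (adjusted p = 0.0524).

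Because the vehicle and 30 µg/kg groups hold the same positions, their mice can be set side by side. Dbp was lower at 30 µg/kg at 5 of 5 positions (mean log2 difference -1.56 ± 0.65, SD), Nr1d1 at 5 of 5 (-1.24 ± 0.86), Per3 at 5 of 5 (-0.64 ± 0.31) and Cry2 at 5 of 5 (-0.43 ± 0.30), while Per2 was higher at 5 of 5 (0.46 ± 0.29). At 3 µg/kg Dbp and Nr1d1 were again lower at 5 of 5 and Cry2 at 4 of 5. These are the same mice as in the fits and add no independent test.

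With the position term, 4 members differed at some dose (Per2, adjusted p = 0.0290, Cry1, 0.0487, Dbp, 0.0273, and Nr1d1, 0.0322, in edgeR, against 33.2% of all genes), and Arntl (0.125) and Npas2 (0.0502) no longer did. This count ran from 1 to 6 with single mice left out, the lowest being Per2 alone without vehicle replicate 3 and the highest without 0.3 µg/kg replicate 3. Cry1 was no longer called in most of these fits, while Per2, Dbp and Nr1d1 were each still called in most. Dbp (-0.15 log2 per dose step, adjusted p = 0.000360), Nr1d1 (-0.13, adjusted p = 0.000794) and Per2 (0.07, adjusted p = 0.00243) followed the dose rank, against 43.5% of all genes. Arntl (-0.10, edgeR adjusted p = 0.289) and Clock (-0.02, adjusted p = 0.546) did not. The trend over log10 dose in the treated mice was not fitted with the position term.

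At 30 µg/kg markers of other cell types moved too. The sum of the stellate cell markers was 119 to 164 CPM in vehicle mice and 253 to 445 CPM at 30 µg/kg, that of the lymphocyte markers 7.88 to 15.1 against 15 to 31.4 CPM, of the macrophage markers 108 to 179 against 110 to 302 CPM, and of the endothelial markers 120 to 161 against 147 to 243 CPM. Cholangiocyte markers were 52.1 to 77.5 against 53 to 70.2 CPM, and hepatocyte markers 119000 to 158000 against 111000 to 161000 CPM. In edgeR 3 of 6 stellate, 2 of 6 lymphocyte, 2 of 6 macrophage and 4 of 5 endothelial genes rose, 0 of 5 cholangiocyte genes passed, and 6 of 8 hepatocyte genes fell. Among all genes 29.6% were called at this dose in either direction, and 14.1% were lower. No marker was at 0 in all mice. Their part in the clock gene levels was not tested.

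**Figure D3:**
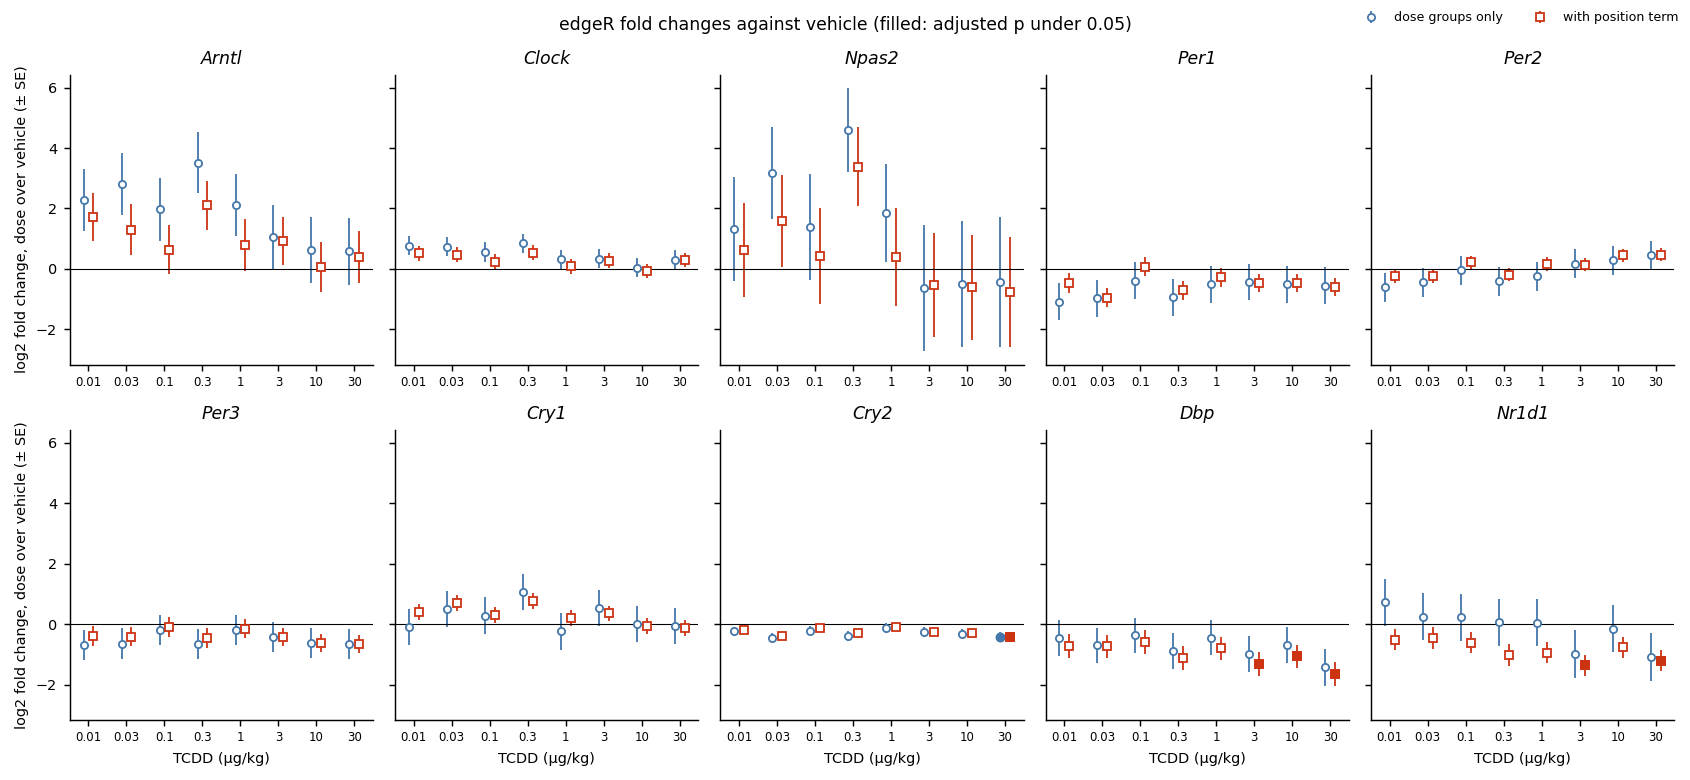
edgeR log2 fold change of each clock gene against the vehicle (vertical axis, bars are standard errors) at each TCDD dose (horizontal axis, µg/kg), without (blue circles) and with (red squares) the position term, filled where the adjusted p is under 0.05. Filled marks are Cry2 at 30 µg/kg in both fits and, with the position term, Dbp at 3, 10 and 30 µg/kg and Nr1d1 at 3 and 30 µg/kg.

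The last comparison asked whether clock genes varied together from mouse to mouse. Group means were removed from log2 CPM, and the Pearson correlation over 45 mice was tested by permuting mice within groups (100000 permutations, smallest possible p 1e-05). The permutations exchanged mice of different positions, so the p-values do not separate a shared position from other covariation between mice. After Benjamini-Hochberg adjustment over the 45 pairs, 32 passed 0.05, of which 13 were positive and 19 negative (31 with Spearman's rho). Of these, 30 also passed without the 2 mice farthest from the median of the first gene. How many pairs of other genes would pass the same test was not computed. Of 12403 other genes, between 4.27% (with Cry2) and 19.4% (with Cry1) had an r of at least 0.5 in size with a given member. The median size of r over the 45 member pairs was 0.578.

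Cry1 and Nr1d1 had the strongest relation, with r = -0.954 (rho = -0.961, permutation p = 1e-05, adjusted p = 4.5e-05, n = 45 mice). It was -0.948 without the 2 mice farthest in Cry1. NR1D1 is a known repressor of Cry1. With positions removed as well, r was -0.754, which is given without a test, as are all such values below.

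The activators varied together. Arntl and Clock gave r = 0.884 (rho = 0.811, permutation adjusted p = 4.5e-05, 0.860 without the 2 farthest mice and 0.772 with positions removed), and Arntl and Npas2 r = 0.713 (rho = 0.624, adjusted p = 0.000381, 0.563 and 0.564). Per1 and Per2 gave r = 0.887 (rho = 0.834, adjusted p = 4.5e-05, 0.840 without the 2 farthest mice), but 0.487 with positions removed.

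Arntl ran against Per3 and Dbp. For Arntl, r was -0.866 with Per3 (rho = -0.833, permutation adjusted p = 4.5e-05) and -0.758 with Dbp (rho = -0.676, adjusted p = 4.5e-05), and these were -0.808 and -0.671 without the 2 farthest mice and -0.794 and -0.829 with positions removed. Clock gave r = -0.859 with Per3 and -0.726 with Dbp (rho = -0.817 and -0.702, permutation adjusted p = 4.5e-05 for each), and -0.816 and -0.687 without the 2 farthest mice. Npas2, with few reads, gave r = -0.856 with Per3 (rho = -0.721, permutation adjusted p = 4.5e-05) and -0.546 with Dbp (rho = -0.269, adjusted p = 0.0167), the latter being -0.167 without the 2 farthest mice. With positions removed, r with Per3 and Dbp was -0.746 and -0.775 for Clock, and -0.813 and -0.748 for Npas2. Per3 varied with Dbp (r = 0.747, rho = 0.706, permutation p = 2e-05, adjusted p = 8.18e-05), its r being 0.631 without the 2 farthest mice and 0.923 with positions removed. Dbp and Nr1d1 gave r = 0.631 (rho = 0.539, adjusted p = 0.00166, 0.565 and 0.813).

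For some pairs r changed once positions were removed. Per2 and Cry1 gave r = 0.71 (rho = 0.797, permutation adjusted p = 4.5e-05, 0.704 without the 2 farthest mice) and 0.0291 with positions removed. Arntl and Nr1d1, a target and its repressor, gave -0.067 (rho = 0.0723, permutation adjusted p = 0.824, 0.11 without the 2 farthest mice) and -0.516 with positions removed, and Per3 and Cry1 gave 0.0248 (rho = 0.019, adjusted p = 0.946, 0.244 without the 2 farthest mice) and -0.622. The median size of r over the 45 pairs was 0.578, and 0.487 with positions removed. The values with positions removed were not repeated without the farthest mice. They include replicate 1 at 0.3 µg/kg, which had the highest Arntl and Cry1 and the lowest Nr1d1 and Per3 of all mice. The position 5 mice were among the lowest for Per1 and Per2, and so weigh in every r of these genes that keeps positions in.

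**Figure D4:**
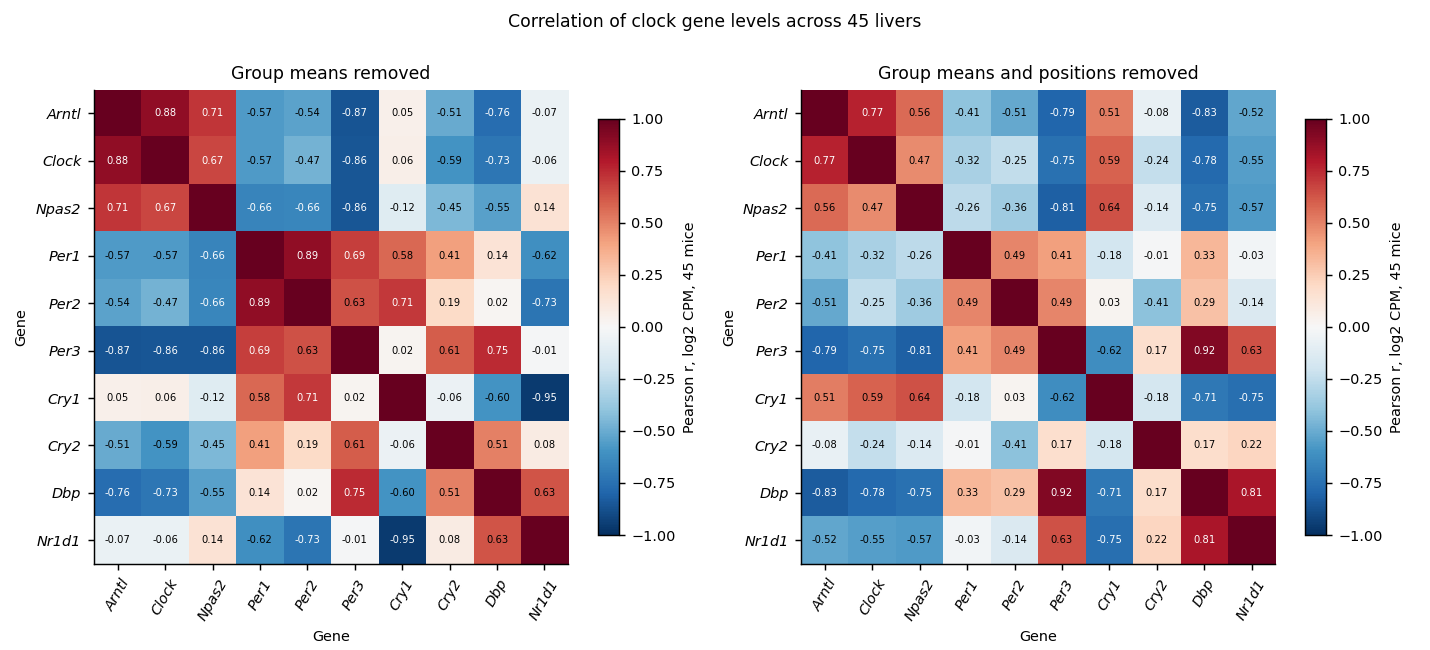
Pearson r between clock genes over 45 livers (rows and columns are genes, colour from -1 in blue to 1 in red) after removing group means (left) and group means and positions (right). Cry1 and Nr1d1 have r of -0.954 on the left and -0.754 on the right, and Arntl and Nr1d1 change from -0.067 to -0.516.

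For each member the 3 genes with the highest and lowest within-group r were listed, as a description. They were drawn from 12403 genes with a mean of at least 1 CPM, and the members themselves were left out. Relations between members, such as Cry1 with Nr1d1 (r = -0.954), are therefore not ranked here. Several of the genes listed were clock genes outside the members. Per3 was most like Tef (r = 0.972), a PAR bZIP factor related to Dbp, and Wee1 (0.918), a cell cycle kinase under clock control. Per1 was most like Usp2 (0.949), a deubiquitinase of the clock, and Ciart (0.927), a repressor of the activating pair. Dbp was most like Nr1d2 (0.946), the paralogue of Nr1d1.

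Arntl was most like Nedd4l (0.927), a ubiquitin ligase, and Chka (0.916), choline kinase, and least like Slc5a6 (-0.899) and Tef (-0.899). Clock was most like Caprin1 (0.93), Npas2 most like Rnf144a (0.879), Per2 most like Marveld1 (0.933) and Usp2 (0.929), and Cry1 most like Tatdn2 (0.907). With the members left out, Nr1d1 was most like Trib3 (0.902), a stress-induced pseudokinase, and least like Tsc22d3 (-0.887), a glucocorticoid target. Cry2 had the weakest best match, Slc38a4 (0.807). The share of all genes with r of at least 0.5 in size was 4.27% for Cry2 and 19.4% for Cry1, and between these for the others, all over the same 45 libraries.

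Genes around the clock were counted by list. At 30 µg/kg, 7 of 19 clock companions passed in edgeR (4 higher, 3 lower), 2 of 20 liver clock outputs (both lower) and 2 of 10 glucocorticoid and feeding genes (1 each way), beside 29.6% of all genes. From 0.01 to 1 µg/kg the counts were 0 in all 3 lists in edgeR, with at most 3, 7 and 2 genes at an unadjusted p under 0.05, where 5.15% to 13% of all genes had one. At 3 µg/kg they were 1, 1 and 0, and at 10 µg/kg 2, 1 and 0. The median log2 fold change was -0.30, -0.48 and 0.03 in the 3 lists at 30 µg/kg, and 0.02 over all genes. With the position term 12 of 19 (5 higher, 7 lower), 8 of 20 (all lower) and 3 of 10 (1 higher, 2 lower) passed, beside 34.4% of all genes. Position itself passed for 13, 17 and 7 genes of the 3 lists, beside 22.5%.

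Among companions called at 30 µg/kg, Bhlhe40, a repressor at E-boxes, fell by 0.91 ± 0.28 (SE, log2, edgeR adjusted p = 0.0112), and Rora, the activator at ROR elements, by 0.40 ± 0.14 (adjusted p = 0.0242). Tipin rose by 0.87 ± 0.15 (adjusted p = 1.201e-05) and Timeless, its partner at the replication fork, by 0.78 ± 0.24 (adjusted p = 0.0111). Both outputs called fell strongly. Rgs16, a regulator of G protein signalling, fell by 3.77 ± 0.74 (adjusted p = 0.000120), and Elovl3, a fatty acid elongase, by 3.09 ± 0.75 (adjusted p = 0.00146). Of the feeding genes, the kinase Sgk1 rose by 0.83 ± 0.30 (adjusted p = 0.0338) and the coactivator Ppargc1a fell by 0.77 ± 0.24 (adjusted p = 0.0117).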

How the data were processed

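RNA-Seq read counts per gene from the livers of 45 mice were used. The authors aligned reads to GRCm38 with TopHat 1.4.1, handled them with SAMtools 0.1.19 and made the deposited counts with HTSeq 0.6.1 (FastQC 0.11.2 and DESeq are also named in the submitters' processing notes). The counts were not normalized. The strand setting was not given in the sources used here. The 5 HTSeq summary lines of each file were kept out of library sizes and tests, with 9.11% to 17.1% of reads on no feature and 1.34% to 2.07% ambiguous. The median library held 17225047 reads on genes, and a gene with few reads has the least precise value.

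Symbols and exons came from GENCODE M21 and promoter windows from RefSeq GRCm38.p6. Genes with more than 4 reads in any mouse were tested with edgeR 4.0.16 in R 4.3.3 (TMM, all 45 mice, 1 coefficient per group, quasi-likelihood test, Benjamini-Hochberg adjustment, called under 0.05), with DESeq2 1.42.0 as an alternative, where the study itself used a variance stabilizing transformation, a semi-parametric normalization and empirical Bayes probabilities. Correlations were computed on log2 CPM (prior count 2) with Python 3.11.15, numpy 2.4.6, pandas 2.3.3 and scipy 1.17.1, and figures drawn with matplotlib 3.10.9. On simulated counts for 30 µg/kg against vehicle over 17464 genes, edgeR recovered 61.2% of 1.5-fold, 97% of 2-fold and 98.5% of 4-fold changes, with 8 calls outside the 200 changed genes. The changed genes were drawn from those with a mean of at least 100 reads. Most members varied more between mice than most genes, and Arntl and Npas2 had few reads, so these shares do not give the recovery for the members.

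Groups came from the labels, 5 mice each, and replicates were separate mice. The members and the gene lists were chosen with earlier results of these data known, and the position term was added after the data were seen. The genes named are all 10 members, leading genes among the 3 most and 3 least like each by within-group r, and up to 5 genes a list with the largest change among those called at 30 µg/kg, with Cyp1a1 as a check of the vehicle and 30 µg/kg labels. One gene that this rule would name is not reported here.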

Additional observations from a re-analysis of the deposited data

Results flagged for a closer look

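In 12 of the 90 groups of 5 mice (10 genes in 9 dose groups), Dixon's test at the 95% level set 1 mouse apart from the other 4, where chance flags about 1 in 20 groups. Of these, 7 were the same liver, replicate 2 at 1 µg/kg, the position 5 mouse, which had 13.1 CPM of Arntl, 60.2 CPM of Clock and 1.26 CPM of Npas2, all the highest of its group, and 1.77 CPM of Per1, 13.4 CPM of Per2 and 14.7 CPM of Per3, all the lowest. Its Cry2, at 28.99 CPM, was the lowest of its group as well. Per1 was also lowest in the position 5 mouse at 0.3 µg/kg (1.47 CPM) and in the position 2 mouse at 3 µg/kg (20.5 CPM). The others were a low Arntl at 0.01 µg/kg (0.140 CPM), a high Arntl at 10 µg/kg (3.69 CPM) and a low Per3 at 30 µg/kg (62.0 CPM).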

How the results depend on the processing

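Among single log2 fold changes under planned settings that kept all mice, 549 kept their direction and side of the threshold, 7 passed newly, 2 no longer passed and 0 reversed. Cry2 at 30 µg/kg lost its call with library size only (-0.22, adjusted p = 0.255), with adjustment over all genes and doses (edgeR adjusted p = 0.114), and with a fold change of at least 2 required, so that 0 members were left in each, and a member then followed the dose rank with library size only (1). Adjustment over all doses called 2 members at 0.3 µg/kg, and DESeq2 called 1 there. Fits of only the groups compared called 2 members at 10 µg/kg and 3 at 30 µg/kg, beside 21.4% and 33.7% of the genes tested. The TMM factors, which divide the CPM of every gene in a mouse, were 0.938 to 0.967 in the vehicle mice and 1.03 to 1.175 at 30 µg/kg. With library size only, the log2 fold changes at 30 µg/kg were -0.433 for Per3 and -1.2 for Dbp, against -0.648 and -1.432 with TMM. For the shifts other than the fold limit, the cause was not tested. The smaller fits changed the spread estimate, the filter and the set of genes adjusted over together. Log10 dose over the treated mice, in a fit without the position term, gave 4 members with a trend (Arntl, Clock, Per2 and Nr1d1), beside 40.3% of all genes. The position term, added after the data were seen, gave 2 members at 3, 1 at 10 and 3 at 30 µg/kg, 4 at any dose and 3 with a trend. With each mouse left out, counts were 0 to 1 at 30 µg/kg, 0 at all lower doses, 0 to 3 at any dose, 0 to 2 for the trend, 10 for position and 29 to 33 for correlated pairs. DESeq2 size factors, filterByExpr and no filter changed no count. No paired analysis was possible because replicate numbers follow only the order of the samples; the position of a mouse's label number was used as a term instead. Few reads set the values of Npas2, with no read in 15 mice.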
